A study of Drosophila melanogaster with 14 samples.

Results

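The genes described here are 43 cell surface and secreted proteins of the kind that growing neurites use to recognise other cells, taken by gene name from the 13931 genes of the table. All 43 names were present. The list holds 14 Beat genes and their founding partner side, 6 Kekkon genes, Fas1 and Fas3, 4 Dscam genes, 3 Robo receptors, the netrin receptors unc-5 and fra, ed and fred, the adhesion proteins Nrg, Lac, Ama and klg, the fusion receptors rst, kirre, hbs and sns, and the receptor phosphatase Lar. They were read across the 7 subtypes of Kenyon cells, the intrinsic neurons of the adult mushroom body, which fall into the γ, α′/β′ and α/β classes. Nuclei of each subtype were isolated with a split-GAL4 driver, and RNA from 2 samples of nuclei per driver was sequenced. The drivers were MB607B for γd, MB131B for γm+d, MB418B for α′/β′m, MB370B for α′/β′ap+m, MB371B for α/βp, MB185B for α/βs and MB594B for α/βc. All flies carried the nuclear envelope tag 5XUAS-unc84::2XGFP in 1 isogenic background (MJ2). MJ2 is a subline of w1118 (isoCJ1), a line that goes back to Canton-S. The food held antibiotics, and no treatment was compared between samples. The flies were 2 to 5 days old, with males and females mixed, and 400 heads went into a sample. By their names, the γm+d and α′/β′ap+m drivers take in the cells of γd and α′/β′m as well, so those pairs compare a narrow population with a wider one. Each driver can also label a few cells outside the mushroom body. The samples of a driver are described as independent biological replicates, and each p-value of a subtype test measures the spread between them. In the class and transcript usage tests all libraries of a class count as its replicates. The spread in those tests therefore also holds the differences between subtypes of a class.

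Kenyon cell axons sort into separate lobes and layers, and proteins with immunoglobulin domains on the neuronal surface take part in such sorting. Beat proteins bind Side proteins on other cells, a system first found through motor axons that failed to leave their bundle. Kekkon proteins carry leucine-rich repeats besides an immunoglobulin domain, Dscam proteins bind copies of themselves, Robo proteins are receptors for Slit, and Unc-5 and Frazzled are receptors for Netrin. Fas1 has fasciclin domains and no immunoglobulin domain, and Lar has both immunoglobulin domains and intracellular phosphatase domains.

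The values are TPM, each a length-scaled share of the RNA of a library that is set to the same total in all of them. Depth is not kept in such values, so the number of reads behind any of them is unknown and a gene can only be described as listed at 0. Between 5632 genes (γd 1) and 11359 genes (α′/β′m 2) were above 0 TPM in a library. γd 1, α/βp 1 with 6534 genes and γd 2 with 7601 stood apart from the other 11, which had 8836 or more. Replicates of a subtype correlated across genes at r = 0.805 (α/βp) to 0.967 (α′/β′ap+m) on the log2(TPM + 1) scale. Kenyon cell markers (ey, toy, dac, Mef2, rut, mub, prt) summed to 11026 to 16971 TPM per library and pan-neuronal markers to 8250 to 15080 TPM. Glial markers summed to 49.2 to 308 TPM, photoreceptor markers to 435 to 3932 TPM, fat body markers to 423 to 6117 TPM, and haemocyte markers to 1.28 to 7.96 TPM. A lower level in such bulk samples can mean fewer cells with the RNA or less RNA per cell, and these cannot be told apart.

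Together the 43 genes made up 11925 to 21221 TPM of a library, mostly because of Fas1, which averaged 9874 TPM (5866 to 16560 TPM over the 14 libraries). Dscam2 and Dscam1 followed with means of 1654 and 1213 TPM. Of the other 40, 8 averaged 100 to 1000 TPM, 21 averaged 10 to 100 TPM, 9 averaged 1 to 10 TPM, and robo2 and Ama averaged under 1 TPM. Ama, a secreted immunoglobulin protein, was listed at 0 in all 14 libraries. The Slit receptors robo2 and robo3 reached at most 2.55 and 8.67 TPM, against 68.3 to 408 TPM for robo1. rst and hbs also stayed under 10 TPM everywhere, so 38 of the 43 genes met the minimum of 10 TPM in at least 1 library and were tested.

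**Figure D1:**
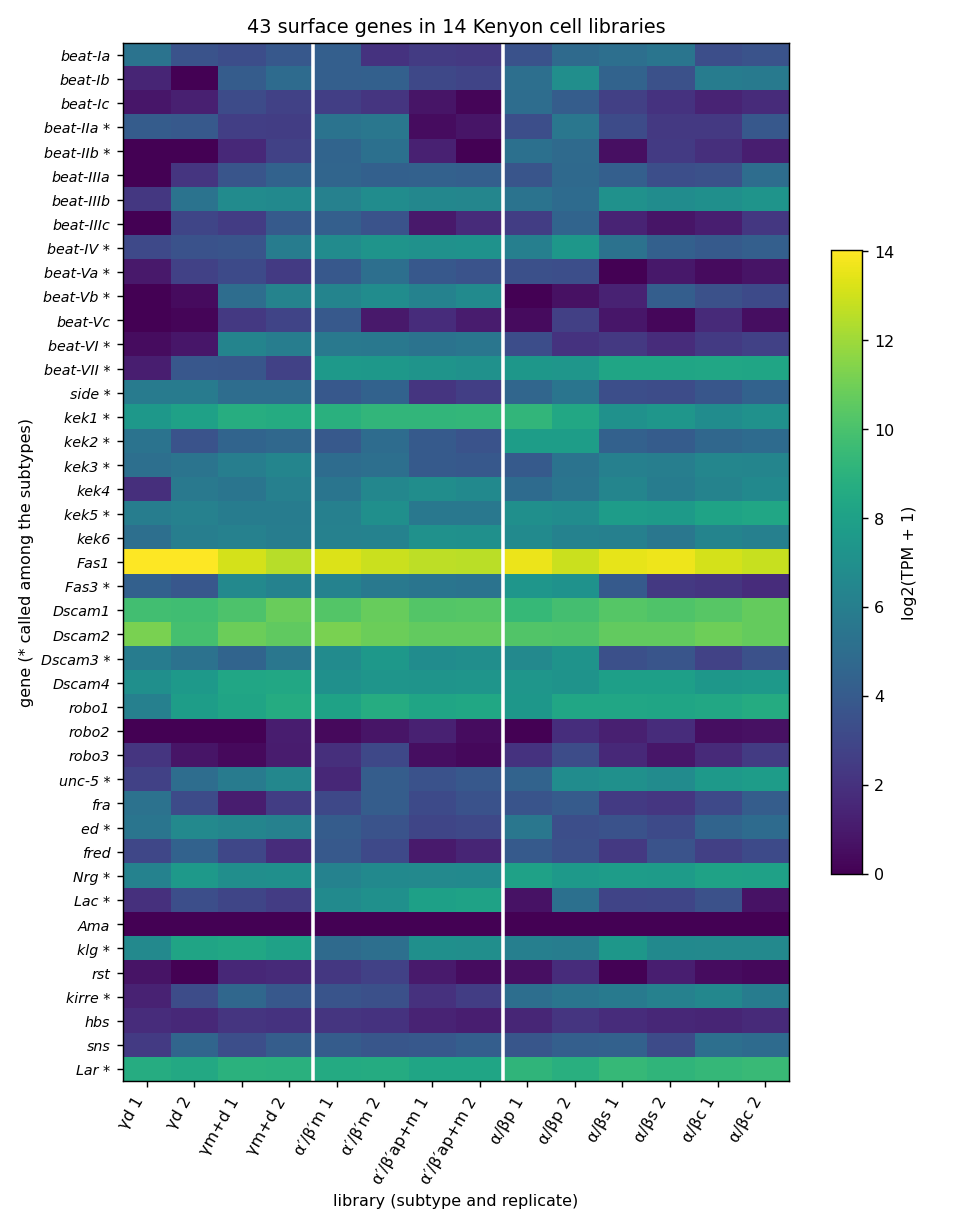
Levels of the 43 genes in the 14 libraries, as log2(TPM + 1) without further normalization. Rows are genes and columns are libraries by subtype, with white lines between the γ, α′/β′ and α/β classes, and an asterisk marks the 21 genes that differed among the subtypes. Fas1 is the brightest row, Ama is at 0 throughout, and beat-VII is dark in the 4 γ libraries only.

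Differences among the 7 subtypes were called at an adjusted p under 0.05 in limma's F-test and at least 2-fold between the highest and lowest subtype. In that test 21 of the 38 genes differed, where 14.2% of all 8646 tested genes did. Among the 38, the median log2 difference between the highest and lowest subtype was 3.40, beside 2.28 over all tested genes. By family the called genes were 7 of 14 Beats (beat-IIa, beat-IIb, beat-IV, beat-Va, beat-Vb, beat-VI and beat-VII), side, 4 of 6 Kekkons (kek1, kek2, kek3 and kek5), Fas3, Dscam3, unc-5, ed, Nrg, Lac, klg, kirre and Lar. The 17 others included the most abundant ones, Fas1, Dscam2 and Dscam1, whose subtype means spanned log2 0.85, 0.85 and 0.94. Fas1 passed the F-test (adjusted p = 0.0178) but not the 2-fold minimum. Its subtype means in TPM were 16364 ± 277 in γd (the highest) and 6169 ± 54.9 in α′/β′ap+m (the lowest) (SD, n = 2 each), and it was called on unscaled TPM (log2 range 1.41, adjusted p = 0.0148), where the quantile normalization of the main test is left out.

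Between classes, log2 differences are on quantile-normalized log2(TPM + 1) and give the first-named class minus the second. Between γ and α′/β′, 5 of the 38 genes were higher in γ (side, kek3, unc-5, ed and klg), against 1.4% of all tested genes, and 2 were lower in γ (beat-VII and Lac), against 1.42%. Between γ and α/β, only ed was higher in γ and only beat-VII lower, 1 gene each, with 1.43% and 1.67% of all tested genes. At an unadjusted p under 0.05 with a 2-fold difference, 8 of the 38 separated γ from α/β, against 12.4% of all tested genes. Between α′/β′ and α/β, 4 genes were higher in α′/β′ (beat-Vb, beat-VI, kek1 and Lac), against 2.3%, and 5 were lower (kek3, kek5, unc-5, Nrg and kirre), against 2.59%. Median log2 differences of the 38 genes were 0.31, 0.20 and -0.21 in the 3 comparisons, beside -0.16, -0.11 and 0.07 over all tested genes. Called the same way against both other classes were 5 genes, where 3.68% of all tested genes were: beat-VII low in γ, ed high in γ, kek3 and unc-5 low in α′/β′, and Lac high in α′/β′. Markers of other cells also differed between α′/β′ and α/β. Of the fat body markers, 2 of 5 tested (Yp1 and apolpp) were lower in α′/β′, and of the muscle markers 1 of 4 (Mhc, log2 difference -2.51). Fat body markers summed to 574 to 1974 TPM in α′/β′, against 1644 to 6117 TPM in α/β, and muscle markers to 29.1 to 129 TPM, against 99.4 to 371 TPM. Their part in the lower levels of kek3, kek5, unc-5, Nrg and kirre was not tested.

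Within classes, beat-Vb was the only gene called between γd and γm+d (1 of 38, against 1.16% of all tested genes), and beat-IIa and beat-IIb were the 2 called between α′/β′m and α′/β′ap+m (against 1.1%). Higher in α/βp than in α/βs were 4 genes, kek1, kek2, Fas3 and Dscam3, with 1.99% of all tested genes called in either direction. Higher in α/βp than in α/βc were 6, the same 4 genes plus beat-IIb and beat-IV, with 3.17% called. The α/βp comparisons share the α/βp libraries, and none of the 38 genes was called lower in α/βp, although beat-IIIb, kek3, kek5, klg, Dscam1 and unc-5 each were against α/βs or α/βc when certain libraries were left out (log2 difference -2.78 to -1.25). Between α/βs and α/βc limma called 0 genes of the 38 and 0% of all tested genes. Of the 38, beat-Ia alone had an unadjusted p under 0.05 with at least 2-fold there, against 3.52% of all tested genes, at 33.2 and 42.3 TPM in α/βs against 9.51 and 11.1 TPM in α/βc. kek2 was the 1 gene called in the same direction in 1 subtype against each of the other 6, where 1.34% of all tested genes were called in this way.

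**Figure D2:**
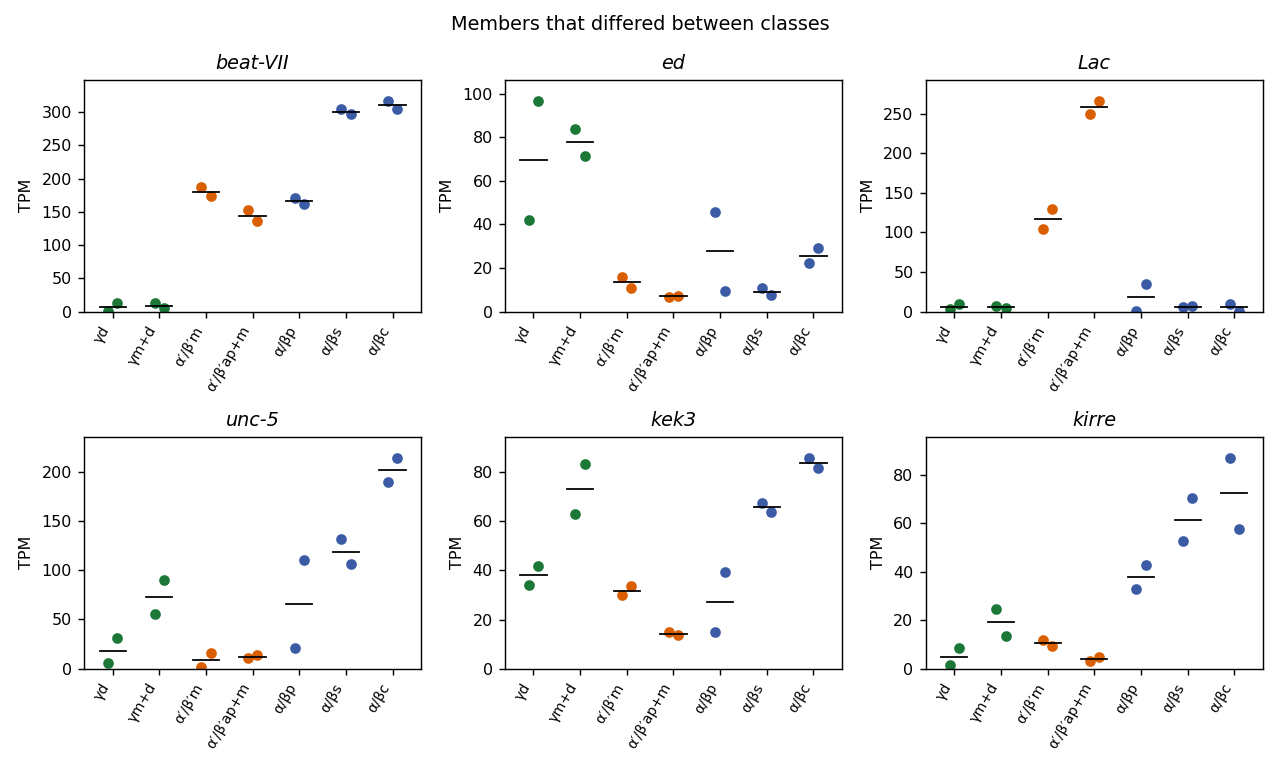
Levels in TPM of 6 genes that differed between classes, by subtype. Points are single libraries, 2 per subtype, horizontal lines are their means, and colours give the class (γ green, α′/β′ orange, α/β blue). beat-VII stays under 13 TPM in γ and at 136 TPM or more elsewhere, and Lac is at 104 TPM or more only in α′/β′.

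Of the Beats, beat-VII (chromosome arm 3R, 26645282 to 26681966 in BDGP6) separated the γ class from the rest. It was at 1.24 and 12.7 TPM in γd, 12.5 and 5.58 TPM in γm+d, 187 and 174 TPM in α′/β′m, 152 and 136 TPM in α′/β′ap+m, 170.2 and 161 TPM in α/βp, 305 and 296 TPM in α/βs and 317 and 305 TPM in α/βc. Every γ library was below every other one. The gene was lower in γ than in α′/β′ (log2 difference -3.65, SE 0.47, adjusted p = 0.000139) and lower than in α/β (log2 difference -4.39, SE 0.43, adjusted p = 4.72e-06), and both calls held when any 1 library was left out, with log2 differences of -3.90 to -3.12 and -4.63 to -3.86. Between α′/β′ and α/β it was not called (log2 difference -0.73, SE 0.43, adjusted p = 0.507), although the α/βs and α/βc libraries were at 296 to 317 TPM, against 136 to 187 TPM in α′/β′. The α/βp libraries lay with the α′/β′ ones.

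beat-Vb and beat-VI were low in α/β and split the γ class. beat-Vb was at 0 and 0.32 TPM in γd, 30.9 and 75.2 TPM in γm+d, 77.7 and 112 TPM in α′/β′m, 73.5 and 105 TPM in α′/β′ap+m, 0 and 0.53 TPM in α/βp, 1.49 and 16.9 TPM in α/βs and 9.93 and 7.91 TPM in α/βc. All 4 α′/β′ libraries were above all 6 α/β libraries (log2 difference 4.53, SE 1.00, adjusted p = 0.0091), a call that ended with 1 value per subtype (log2 difference 4.53, adjusted p = 0.122). Within γ, both γd libraries were at or near 0 and both γm+d libraries were above 30 TPM (log2 difference -4.57, SE 0.98, adjusted p = 0.0489). Of the muscle markers, 1 of 4 tested (Mlc2) was called higher in γd than in γm+d, and of the photoreceptor markers 1 of 6 (norpA). Muscle markers summed to 507 and 240 TPM in γd, against 70.2 and 71.4 TPM in γm+d. Whether this bears on the beat-Vb and beat-VI levels was not tested. The beat-Vb call within γ ended without any 1 of 9 of the 14 libraries (all but γd 2, α/βp 1, α/βp 2, α/βs 1 and α/βs 2) (log2 difference -4.88 to -3.62, adjusted p = 0.0762 to 0.252). It also ended with a pseudocount of 0.1, without the filter on low values, without the variance trend or without γd 1 and α/βp 1 together (log2 difference -6.19 to -3.49, adjusted p = 0.0566 to 0.109). beat-VI was at 0.38 and 0.83 TPM in γd, 78.3 and 61.2 TPM in γm+d, 49.5 and 48.0 TPM in α′/β′m, 39.1 and 44.0 TPM in α′/β′ap+m, 8.88 and 3.20 TPM in α/βp, 4.01 and 2.42 TPM in α/βs and 4.25 and 5.58 TPM in α/βc. In TPM, the 2 γm+d libraries were the highest of all and the 2 γd libraries the lowest. On the quantile-normalized log2 scale of the tests, γd was not the lowest. There it was at 3.23 and 2.37, against 1.75 and 1.74 in α/βs and 2.01 and 1.89 in α/βc. The α′/β′ libraries did not overlap those of α/β (log2 difference 2.99, SE 0.76, adjusted p = 0.0262). The beat-VI call between α′/β′ and α/β ended without any 1 of 8 of the 14 libraries (all but γd 1, γd 2, γm+d 1, γm+d 2, α/βp 1 and α/βc 1) (log2 difference 2.79 to 3.13, adjusted p = 0.0504 to 0.0955), and its F-test call (0.0125) without γm+d 1 (log2 range 3.91, adjusted p = 0.0523). The class call also ended on unscaled TPM, after median-ratio scaling, without the filter on low values or with 1 value per subtype (log2 difference 2.90 to 3.09, adjusted p = 0.0593 to 0.221). For beat-VI the difference between γd and γm+d was not called (log2 difference -3.30, SE 0.86, adjusted p = 0.0796), but it was on unscaled TPM, after median-ratio scaling, without α/βp 1, without α/βp 2 or without γd 1 and α/βp 1 together (log2 difference -5.47 to -3.17, adjusted p = 0.00823 to 0.0279).

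beat-IIa and beat-IIb, neighbours on chromosome arm 3R, differed between the samples of the α′/β′m and α′/β′ap+m drivers. beat-IIa was at 15.9 and 13.9 TPM in γd, 5.09 and 4.93 TPM in γm+d, 38.9 and 45.9 TPM in α′/β′m, 0.36 and 0.71 TPM in α′/β′ap+m, 9.48 and 46.3 TPM in α/βp, 8.17 and 3.96 TPM in α/βs and 3.99 and 13.5 TPM in α/βc. It was higher in α′/β′m (log2 difference 4.93, SE 0.77, adjusted p = 0.0105), with both α′/β′ap+m libraries under 1 TPM. The beat-IIa call ended without α′/β′m 1, α′/β′ap+m 1 or α′/β′ap+m 2 (log2 difference 4.73 to 5.03, adjusted p = 0.0991 to 0.159). It also ended on unscaled TPM (log2 difference 4.83, adjusted p = 0.0549), as did the F-test call. beat-IIb was at 0 and 0 TPM in γd, 2.06 and 5.56 TPM in γm+d, 22.1 and 34.5 TPM in α′/β′m, 1.42 and 0 TPM in α′/β′ap+m, 35.2 and 27.5 TPM in α/βp, 0.48 and 4.14 TPM in α/βs and 2.74 and 1.22 TPM in α/βc. It was higher in α′/β′m than in α′/β′ap+m (log2 difference 4.14, SE 0.88, adjusted p = 0.0459) and higher in α/βp than in α/βc (log2 difference 3.74, SE 0.88, adjusted p = 0.0402). Libraries of α′/β′m and α/βp held more than 20 TPM of beat-IIb and all others held under 6 TPM, and γd was listed at 0 in both. The beat-IIb call within α′/β′ ended without any 1 of 10 of the 14 libraries (all but γd 1, γd 2, α/βp 1 and α/βp 2) (log2 difference 3.73 to 4.51, adjusted p = 0.0568 to 0.498), and that within α/β without any 1 of 9 of the 14 libraries (all but γd 1, γd 2, α/βp 2, α/βs 1 and α/βs 2, adjusted p = 0.052 to 0.259). The first also ended with a pseudocount of 0.1, on unscaled TPM, after median-ratio scaling, without the filter on low values or with a replicate block (log2 difference 4.14 to 6.47, adjusted p = 0.0615 to 0.0955), and the second with a pseudocount of 0.1, on unscaled TPM, after median-ratio scaling, without the filter on low values or without γd 1 and α/βp 1 together (log2 difference 3.11 to 5.02, adjusted p = 0.0817 to 0.121). Of the glial markers, 2 of 5 tested (Gs2 and Eaat1) were also higher in α′/β′m than in α′/β′ap+m, and the glial list summed to 308 and 238 TPM in α′/β′m, against 82.5 and 117 TPM in α′/β′ap+m, with repo at 0.94 and 1.72 and 0.24 and 0.07 TPM. Whether this bears on the Beat levels was not tested. By its name the α′/β′ap+m driver takes in the α′/β′m cells as well. Its libraries nevertheless held only 0.36 and 0.71 TPM of beat-IIa and 1.42 and 0 TPM of beat-IIb. Why they did was not tested, so the levels describe the samples of each driver and not the α′/β′m Kenyon cells alone.

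beat-IV was at 7.43 and 10.4 TPM in γd, 11.5 and 57.3 TPM in γm+d, 106 and 152 TPM in α′/β′m, 134 and 140.3 TPM in α′/β′ap+m, 64.4 and 168 TPM in α/βp, 38.3 and 19.0 TPM in α/βs and 14.5 and 18.1 TPM in α/βc. It was higher in α/βp than in α/βc (log2 difference 3.16, SE 0.59, adjusted p = 0.0141), and the α′/β′ libraries, all above 100 TPM, exceeded 9 of the other 10, α/βp 2 being the exception. The beat-IV call ended without α/βc 1 or α/βc 2 (log2 difference 3.18 to 3.20, adjusted p = 0.0965 to 0.105), and on unscaled TPM (log2 difference 2.61, adjusted p = 0.126). No class comparison called it (log2 difference -2.28, SE 0.68, adjusted p = 0.0864 for γ minus α′/β′), but γ against α′/β′ was called on unscaled TPM, without α/βp 2 or with class means from the subtype model (log2 difference -3.03 to -2.28, adjusted p = 0.00501 to 0.0321) and α′/β′ against α/β without α/βp 1, without α/βp 2, without γd 1 and α/βp 1 together or with class means from the subtype model (log2 difference 1.96 to 2.44, adjusted p = 0.00493 to 0.04). beat-Va was at 0.94 and 5.47 TPM in γd, 7.91 and 4.16 TPM in γm+d, 13.3 and 34.0 TPM in α′/β′m, 13.6 and 11.1 TPM in α′/β′ap+m, 9.88 and 9.19 TPM in α/βp, 0 and 0.89 TPM in α/βs and 0.34 and 0.67 TPM in α/βc, with its highest values in α′/β′ and under 1 TPM in all 4 α/βs and α/βc libraries. Its F-test call (adjusted p = 0.0494) lay at the threshold and ended without any 1 of 11 of the 14 libraries (all but γd 2, α/βp 1 and α/βp 2) (log2 range 3.38 to 4.14, adjusted p = 0.0504 to 0.144). It also ended with a pseudocount of 0.1, with a pseudocount of 5, on unscaled TPM, after median-ratio scaling, without the filter on low values or with a replicate block (log2 range 2.07 to 5.77, adjusted p = 0.0511 to 0.103).

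The other 7 Beats were not called among the subtypes. beat-IIIb was the most abundant of them, with subtype means of 21.3 ± 24.6 TPM in γd (the lowest) and 139 ± 20.2 TPM in α/βc (the highest) (SD, n = 2 each). beat-Ia, the founding Beat, had means of 4.23 ± 0.212 TPM in α′/β′ap+m (the lowest) and 37.7 ± 6.46 TPM in α/βs (the highest). beat-Ib had means of 0.88 ± 1.24 TPM in γd (the lowest) and 76.5 ± 59.7 TPM in α/βp (the highest), and beat-Ic of 0.44 ± 0.438 TPM in α′/β′ap+m (the lowest) and 23.9 ± 10.1 TPM in α/βp (the highest). beat-Ib replicates were at 34.3 and 119 TPM in α/βp and 1.76 and 0 TPM in γd, and its F-test (adjusted p = 0.0753) was called with a pseudocount of 5, on unscaled TPM, after median-ratio scaling, without γd 1, without γd 2 or without γd 1 and α/βp 1 together (log2 range 2.97 to 6.64, adjusted p = 0.00127 to 0.0354). The F-test also called beat-Ia without α′/β′m 1 or without α′/β′m 2 (log2 range 3.60 to 4.17, adjusted p = 0.0311 to 0.0498) and beat-Ic without α/βp 2 (log2 range 5.10, adjusted p = 0.0421). It called beat-IIIb without γd 2, without α/βp 1 or without γd 1 and α/βp 1 together (log2 range 2.54 to 2.78, adjusted p = 0.00382 to 0.0189) and beat-IIIc without γd 1, without γd 2 or without γd 1 and α/βp 1 together (log2 range 3.07 to 3.60, adjusted p = 0.0309 to 0.0425). beat-IIIa had means of 1.72 ± 2.43 TPM in γd (the lowest) and 20.8 ± 14.8 TPM in α/βc (the highest), and 4457 of its exon bases are shared with CG34106 on the same strand, so reads of these 2 genes may be split. beat-IIIc had means of 1.18 ± 0.665 TPM in α/βs (the lowest) and 14.5 ± 5.03 TPM in α′/β′m (the highest), and beat-Vc of 0.075 ± 0.106 TPM in γd (the lowest) and 7.42 ± 9.19 TPM in α′/β′m (the highest).

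side, whose product is bound by Beat-Ia in motor axon guidance, was highest in γd. It was at 55.8 and 56.7 TPM in γd, 31.3 and 31.8 TPM in γm+d, 13.6 and 20.4 TPM in α′/β′m, 3.46 and 5.07 TPM in α′/β′ap+m, 24.1 and 42.0 TPM in α/βp, 9.25 and 8.55 TPM in α/βs and 12.6 and 19.9 TPM in α/βc. All 4 γ libraries exceeded all 4 α′/β′ libraries, and side was higher in γ (log2 difference 2.96, SE 0.71, adjusted p = 0.0256). The side call ended without γd 1, γd 2, γm+d 1, α′/β′ap+m 1 or α′/β′ap+m 2 (log2 difference 2.59 to 3.05, adjusted p = 0.0535 to 0.0941). It also ended on unscaled TPM or with 1 value per subtype (log2 difference 2.17 to 2.96, adjusted p = 0.114 to 0.342). Among the 7 other Side genes, side-II was higher in α′/β′ than in α/β (log2 difference 1.28, SE 0.30, adjusted p = 0.0161), at 379 and 563 TPM in α′/β′m and 411 and 400.0 TPM in α′/β′ap+m, against 77.3 and 229 TPM in α/βp, 223 and 189.7 TPM in α/βs and 183 and 228 TPM in α/βc. Side-II is a known binding partner of Beat-VI, which was also higher in α′/β′ than in α/β. Side-VI, known to bind the Beat-V proteins, was at 293 to 1588 TPM in every library and was called in no class comparison.

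All 6 Kekkons were tested and detected in every library. kek1, whose product inhibits the EGF receptor, was the most abundant. It was at 176 and 263 TPM in γd, 424 and 400.2 TPM in γm+d, 469.5 and 601 TPM in α′/β′m, 606 and 611 TPM in α′/β′ap+m, 594 and 340.2 TPM in α/βp, 133 and 164 TPM in α/βs and 113 and 134 TPM in α/βc. The α′/β′ libraries were at 469.5 TPM or more and those of α/βs and α/βc at 164 TPM or less, with α/βp above those. kek1 was higher in α′/β′ than in α/β (log2 difference 1.57, SE 0.40, adjusted p = 0.025). Within α/β it was higher in α/βp than in α/βs (log2 difference 1.55, SE 0.32, adjusted p = 0.0361) and than in α/βc (log2 difference 1.93, SE 0.32, adjusted p = 0.00835). The kek1 call between classes ended without any 1 of 8 of the 14 libraries (all but γd 1, γd 2, γm+d 1, γm+d 2, α/βp 1 and α/βp 2) (log2 difference 1.40 to 1.64, adjusted p = 0.0506 to 0.0734). That of α/βp over α/βs ended without any 1 of 11 of the 14 libraries (all but γd 1, γd 2 and α/βp 2) (log2 difference 1.09 to 1.76, adjusted p = 0.0526 to 0.21) and that over α/βc without α/βc 1 or α/βc 2 (log2 difference 1.87 to 2.00, adjusted p = 0.0677 to 0.0823). The class call also ended after median-ratio scaling, without the filter on low values, without the variance trend or with 1 value per subtype (log2 difference 1.33 to 1.57, adjusted p = 0.0682 to 0.263), that over α/βs on unscaled TPM, after median-ratio scaling, without the filter on low values or without the variance trend (log2 difference 1.55 to 1.75, adjusted p = 0.0547 to 0.127) and that over α/βc after median-ratio scaling or without the variance trend (log2 difference 1.93 to 2.17, adjusted p = 0.0521 to 0.0552).

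kek2 (chromosome arm 2L, 11581937 to 11626883) was high in α/βp. It was at 40.0 and 11.0 TPM in γd, 21.9 and 26.1 TPM in γm+d, 14.1 and 30.1 TPM in α′/β′m, 14.9 and 10.8 TPM in α′/β′ap+m, 226 and 219 TPM in α/βp, 19.3 and 15.9 TPM in α/βs and 24.5 and 29.1 TPM in α/βc. Both α/βp libraries were at 219 TPM or more and the other 12 were at 40.0 TPM or less. kek2 was higher in α/βp than in α/βs (log2 difference 3.83, SE 0.63, adjusted p = 0.0109) and than in α/βc (log2 difference 3.39, SE 0.63, adjusted p = 0.0139). It was also called against each γ and α′/β′ subtype, with α/βp as the second of the pair in log2 differences of -2.52 (γd), -3.22 (γm+d), -3.69 (α′/β′m) and -4.77 (α′/β′ap+m). The kek2 call over α/βs ended without α/βs 1 or α/βs 2 (log2 difference 3.84 to 3.87, adjusted p = 0.071 to 0.0908), and that over α/βc without α/βp 1, α/βc 1 or α/βc 2 (log2 difference 3.18 to 3.44, adjusted p = 0.0565 to 0.11). The call over α/βc also ended on unscaled TPM or after median-ratio scaling (log2 difference 3.01 to 3.31, adjusted p = 0.0521 to 0.0631).

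kek3 and kek5 were lower in α′/β′ than in α/β. kek3 was at 34.2 and 41.8 TPM in γd, 63.0 and 83.3 TPM in γm+d, 30.0 and 33.5 TPM in α′/β′m, 14.8 and 13.7 TPM in α′/β′ap+m, 14.9 and 39.5 TPM in α/βp, 67.4 and 63.8 TPM in α/βs and 85.8 and 81.8 TPM in α/βc. It was lower in α′/β′ than in α/β (log2 difference -1.68, SE 0.47, adjusted p = 0.0456) and higher in γ than in α′/β′ (log2 difference 2.11, SE 0.51, adjusted p = 0.0287). The γ libraries did not overlap the α′/β′ ones, but α/βp 1 was at the level of α′/β′ap+m. The kek3 call against α/β ended without any 1 of 10 of the 14 libraries (all but γd 1, α′/β′m 1, α/βp 1 and α/βp 2) (log2 difference -1.88 to -1.41, adjusted p = 0.0562 to 0.172), and that of γ over α′/β′ without γd 1, γd 2, γm+d 1, γm+d 2, α′/β′ap+m 1 or α′/β′ap+m 2 (log2 difference 1.85 to 2.14, adjusted p = 0.0527 to 0.108). The first also ended with a pseudocount of 5, on unscaled TPM, after median-ratio scaling, without the filter on low values, without the variance trend, with a replicate block or with 1 value per subtype (log2 difference -1.68 to -1.23, adjusted p = 0.05 to 0.391), the second on unscaled TPM, after median-ratio scaling, without the variance trend or with 1 value per subtype (log2 difference 1.26 to 2.11, adjusted p = 0.0512 to 0.368), and the F-test call on unscaled TPM (log2 range 2.48, adjusted p = 0.0624). kek5 was at 60.9 and 69.2 TPM in γd, 58.3 and 58.1 TPM in γm+d, 68.5 and 123 TPM in α′/β′m, 48.1 and 47.0 TPM in α′/β′ap+m, 127 and 113 TPM in α/βp, 217 and 197 TPM in α/βs and 284 and 314 TPM in α/βc. The α/βs and α/βc libraries were the 4 highest, and kek5 was lower in α′/β′ than in α/β (log2 difference -1.78, SE 0.40, adjusted p = 0.0107), where α′/β′m 2 overlapped α/βp. The kek5 call ended without α′/β′ap+m 1 or α′/β′ap+m 2 (log2 difference -1.57 to -1.56, adjusted p = 0.0553 to 0.0561). It also ended with 1 value per subtype (log2 difference -1.78, adjusted p = 0.198). Between γ and α/β kek5 was not called, although all γ libraries, at 58.1 to 69.2 TPM, lay below all α/β ones, at 113 TPM or more. That difference was called on unscaled TPM, without α/βp 1, without α/βp 2 or with class means from the subtype model (log2 difference -1.65 to -1.41).

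kek4 and kek6 were not called. Subtype means of kek4 lay between 26.1 ± 33.2 TPM in γd and 106 ± 11.4 TPM in α′/β′ap+m, and those of kek6 between 48.8 ± 20.5 TPM in γd and 134 ± 3.30 TPM in α′/β′ap+m (SD, n = 2 each). kek6 shares 82 exon bases with pasha on the same strand. Both had their highest mean in α′/β′ap+m, but kek4 replicates in γd were 2.66 and 49.6 TPM, and its F-test was called without γd 2 (log2 range 2.24, adjusted p = 0.0297).

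**Figure D3:**
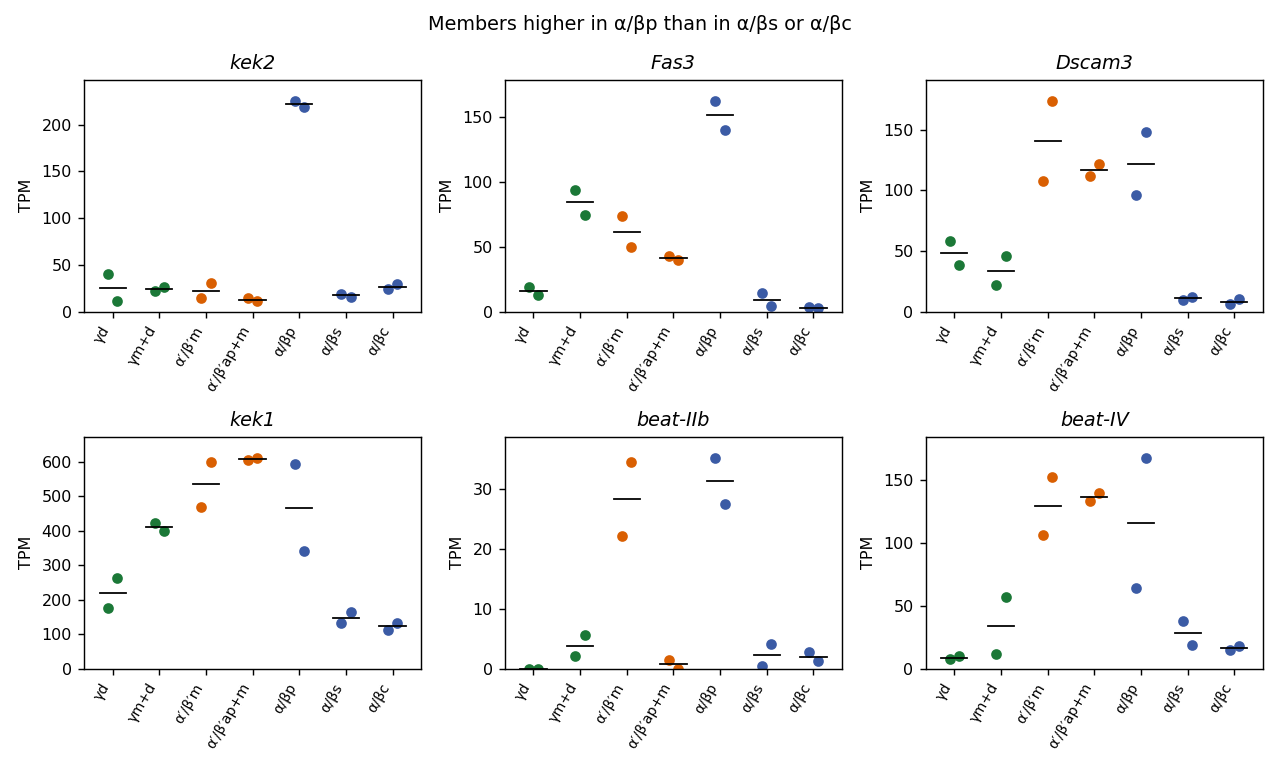
Levels in TPM of the 6 genes that were higher in α/βp than in α/βs, α/βc or both, by subtype. Points are single libraries, 2 per subtype, lines are their means, and colours give the class (γ green, α′/β′ orange, α/β blue). kek2 is at 219 TPM or more in α/βp alone, whereas Dscam3, beat-IIb and beat-IV are also present in at least 1 α′/β′ subtype.

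Fas3, a homophilic adhesion protein, and Dscam3 shared the α/βp pattern of kek2 within the α/β class. Fas3 was at 18.9 and 12.9 TPM in γd, 94.1 and 74.4 TPM in γm+d, 73.5 and 49.6 TPM in α′/β′m, 43.1 and 40.0 TPM in α′/β′ap+m, 162 and 140.1 TPM in α/βp, 14.4 and 4.00 TPM in α/βs and 3.43 and 2.37 TPM in α/βc. The α/βp libraries were the 2 highest of all 14, and those of α/βs and α/βc stayed under 15 TPM. Fas3 was higher in α/βp than in α/βs (log2 difference 4.39, SE 0.66, adjusted p = 0.0069) and than in α/βc (log2 difference 5.80, SE 0.66, adjusted p = 0.000726). The Fas3 call over α/βs ended without α/βs 2 (log2 difference 3.76, adjusted p = 0.088), while that over α/βc held without any 1 library. Dscam3 was at 58.0 and 38.5 TPM in γd, 21.7 and 45.8 TPM in γm+d, 107 and 174 TPM in α′/β′m, 112 and 122 TPM in α′/β′ap+m, 95.9 and 148 TPM in α/βp, 9.86 and 12.2 TPM in α/βs and 5.83 and 10.0 TPM in α/βc. It was higher in α/βp than in α/βs (log2 difference 3.69, SE 0.46, adjusted p = 0.00185) and than in α/βc (log2 difference 4.41, SE 0.46, adjusted p = 0.000407), and both calls held without any 1 library. The 4 α/βs and α/βc libraries were the lowest of all, at 12.2 TPM or less, and the α′/β′ libraries were at 107 TPM or more. Between α′/β′ and α/β as a whole Dscam3 was not called (log2 difference 2.68, SE 0.82, adjusted p = 0.0715), but it was without α/βp 1, without α/βp 2, without γd 1 and α/βp 1 together or with class means from the subtype model (log2 difference 2.68 to 3.28, adjusted p = 8.17e-05 to 0.0122).

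Markers of other cells were not level across the α/β subtypes. VGlut, the vesicular glutamate transporter, was at 63.0 and 37.5 TPM in α/βp, against 22.9 and 21.7 TPM in α/βs and 6.31 and 12.7 TPM in α/βc. Gad1 was at 154 and 88.3 TPM in α/βp, against 11.8 and 10.9 TPM in α/βs and 61.7 and 46.9 TPM in α/βc. VGAT, the other GABAergic marker, did not follow it, at 73.2 and 231 TPM in α/βp, against 206 and 245 TPM in α/βs and 158 and 181 TPM in α/βc. The paper stained for GABA, Gad1 and VGAT and saw no marked signal in α/βp cell bodies. For Gad1 it proposes, as most likely, low driver activity of both lines (α/βp and α/βc) in some GABAergic neurons outside the mushroom body. The glial marker alrm was called lower in α/βp than in α/βs, at 0 and 4.15 TPM against 43.5 and 80.0 TPM. Fat body markers summed to 1758 and 6117 TPM in α/βp, against 2465 and 1644 TPM in α/βs and 1944 and 2199 TPM in α/βc. Muscle markers summed to 256 and 371 TPM in α/βp, against 131 and 99.4 TPM in α/βs and 110.1 and 124 TPM in α/βc. Photoreceptor markers summed to 2022 and 3932 TPM in α/βp, against 1985 and 1566 TPM in α/βs and 1302 and 1498 TPM in α/βc. None of the 6 photoreceptor markers was called between α/βp and either of the others. Of the 5 fat body markers tested, 1 (apolpp) was called higher in α/βp than in α/βc, and VGlut and Gad1 were called in neither comparison. Their part in the α/βp levels of kek1, kek2, Fas3, Dscam3, beat-IIb and beat-IV was not tested.

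The other Dscam genes were not called among the subtypes. Dscam1, known for its very many splice forms, had subtype means of 791 ± 189 TPM in α/βp (the lowest) and 1503 ± 224 TPM in α/βc (the highest), and Dscam2 of 1164 ± 37.6 TPM in α/βp (the lowest) and 2069.9 ± 331 TPM in α′/β′m (the highest) (SD, n = 2 each). Dscam4 had means of 142 ± 18.9 TPM in α′/β′m (the lowest) and 326 ± 13.2 TPM in γm+d (the highest). No class comparison called any of them. The F-test called Dscam2 without γd 1 or without γd 1 and α/βp 1 together (log2 range 1.18, adjusted p = 0.00516 to 0.0067) and Dscam4 with 10 TPM required in 2 libraries, without γd 1, without γd 2, without α/βp 1, without α/βp 2 or without γd 1 and α/βp 1 together (log2 range 1.20 to 1.29, adjusted p = 0.0046 to 0.0497). The table lists 75 Dscam1 transcripts, 53 of which reached 10 TPM in some library, and the one with the largest share, Dscam1-RCD, took 14.1% to 54.7% of the gene's TPM. Such a share is an estimate over the listed transcripts only and does not describe splice forms that are not listed.

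Among guidance receptors, unc-5, the repulsive Netrin receptor, was the one that differed. It was at 5.45 and 31.5 TPM in γd, 56.0 and 90.1 TPM in γm+d, 2.00 and 16.3 TPM in α′/β′m, 10.4 and 13.4 TPM in α′/β′ap+m, 20.7 and 109.9 TPM in α/βp, 131 and 107 TPM in α/βs and 189.7 and 214 TPM in α/βc. unc-5 was lower in α′/β′ than in α/β (log2 difference -4.07, SE 0.52, adjusted p = 4.64e-05), and the 4 α′/β′ libraries lay below all 6 α/β ones. It was higher in γ than in α′/β′ (log2 difference 2.99, SE 0.57, adjusted p = 0.00441), although γd 1 was at 5.45 TPM and overlapped α′/β′. Both calls held without any 1 library, but that of γ over α′/β′ ended on unscaled TPM, after median-ratio scaling or with 1 value per subtype (log2 difference 1.75 to 2.99, adjusted p = 0.0861 to 0.244). unc-5 shares 227 exon bases with Pms2 on the opposite strand. fra, the attractive Netrin receptor, was lower and not called, with means of 2.96 ± 2.58 TPM in γm+d (the lowest) and 23.0 ± 21.1 TPM in γd (the highest). robo1 was not called either, with means of 143 ± 106 TPM in γd (the lowest) and 360.4 ± 37.9 TPM in α/βc (the highest). Without γd 2 the F-test called both, fra with a log2 range of 4.33 and robo1 with 1.82. The ligand NetB was at 76.0 to 136 TPM and sli at 6.80 to 77.0 TPM, and neither was called among the subtypes.

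ed, an adhesion protein that dampens EGF receptor signalling, was high in γ. It was at 42.1 and 96.8 TPM in γd, 83.7 and 71.5 TPM in γm+d, 15.8 and 11.0 TPM in α′/β′m, 6.50 and 7.35 TPM in α′/β′ap+m, 45.8 and 9.50 TPM in α/βp, 10.7 and 7.72 TPM in α/βs and 22.1 and 29.3 TPM in α/βc. ed was higher in γ than in α′/β′ (log2 difference 3.66, SE 0.69, adjusted p = 0.00408) and than in α/β (log2 difference 2.58, SE 0.63, adjusted p = 0.0265). All γ libraries exceeded all α′/β′ ones, whereas α/βp 1 with 45.8 TPM lay above γd 1 with 42.1 TPM. The ed call over α′/β′ held without any 1 library but ended with 1 value per subtype (log2 difference 3.66, adjusted p = 0.0654), and that over α/β ended without γd 1, γd 2, γm+d 1, α/βp 2, α/βs 1 or α/βs 2 (log2 difference 2.36 to 2.53, adjusted p = 0.0524 to 0.0926). The call over α/β also ended on unscaled TPM, without the filter on low values or with 1 value per subtype (log2 difference 1.98 to 2.58, adjusted p = 0.0523 to 0.158). Its F-test call (adjusted p = 0.0326) ended without any 1 of 10 of the 14 libraries (all but α′/β′m 1, α′/β′m 2, α/βp 1 and α/βp 2) (log2 range 3.97 to 4.58, adjusted p = 0.0527 to 0.1). It also ended on unscaled TPM, without the filter on low values or without the variance trend (log2 range 3.31 to 4.35, adjusted p = 0.0589 to 0.0681). ed shares 199 exon bases with an antisense RNA. Its relative fred was not called, with means of 1.40 ± 0.516 TPM in α′/β′ap+m (the lowest) and 13.6 ± 9.45 TPM in γd (the highest).

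Lac encodes Lachesin, an immunoglobulin protein of septate junctions, and was high in α′/β′. It was at 2.79 and 9.47 TPM in γd, 6.62 and 4.60 TPM in γm+d, 104 and 130.0 TPM in α′/β′m, 250.2 and 266 TPM in α′/β′ap+m, 0.59 and 35.2 TPM in α/βp, 6.23 and 6.49 TPM in α/βs and 10.1 and 0.58 TPM in α/βc. All 4 α′/β′ libraries were at 104 TPM or more, and α/βp 2 with 35.2 TPM was the highest of the other 10. Lac was higher in α′/β′ than in α/β (log2 difference 4.77, SE 0.70, adjusted p = 0.000201), lower in γ than in α′/β′ (log2 difference -4.02, SE 0.76, adjusted p = 0.00451), and both calls held without any 1 library. The call between γ and α′/β′ ended with 1 value per subtype (log2 difference -4.02, adjusted p = 0.0881). Within α′/β′ the α′/β′m libraries were lower than the α′/β′ap+m ones, a difference that was not called (log2 difference -1.05, SE 0.90, adjusted p = 0.745). Of the monoaminergic markers, 1 of the 5 tested (DAT, the dopamine transporter) was called between classes, at 184 to 399.7 TPM in α′/β′, against 0 to 2.31 TPM in γ and 0 to 8.15 TPM in α/β. The 5 had a median log2 difference of -0.30 for α′/β′ minus α/β and 0.29 for γ minus α′/β′, and ple, which marks dopaminergic cells, was at 0.31 to 25.9 TPM over all libraries. The sum of the list, mostly DAT in α′/β′, was 265 to 428 TPM in α′/β′, against 26.7 to 60.2 TPM in γ and 54.7 to 74.7 TPM in α/β. The paper reports preferential expression of DAT in the α′/β′ Kenyon cell subtypes themselves, so DAT does not mark other cells here. The part of the listed markers in the α′/β′ levels of Lac was not tested.

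Nrg, the fly L1-type adhesion protein, and klg, a homophilic adhesion protein needed for memory, were lower in α′/β′ in 1 comparison each. Nrg was at 73.3 and 189 TPM in γd, 122 and 127 TPM in γm+d, 72.1 and 97.8 TPM in α′/β′m, 94.6 and 98.5 TPM in α′/β′ap+m, 256 and 182 TPM in α/βp, 210.3 and 205 TPM in α/βs and 269.9 and 261 TPM in α/βc. It was lower in α′/β′ than in α/β (log2 difference -1.46, SE 0.27, adjusted p = 0.0019), without overlap, and the call held without any 1 library but ended with 1 value per subtype (log2 difference -1.46, adjusted p = 0.0734). The Nrg call of the F-test (adjusted p = 0.04) ended without any 1 of 10 of the 14 libraries (all but γd 1, γd 2, α/βp 1 and α/βp 2) (log2 range 1.58 to 1.76, adjusted p = 0.0637 to 0.127). It also ended on unscaled TPM, after median-ratio scaling, without the filter on low values, without the variance trend or with a replicate block (log2 range 1.58 to 1.66, adjusted p = 0.0502 to 0.135). klg was at 97.1 and 292 TPM in γd, 329.7 and 257 TPM in γm+d, 28.2 and 33.8 TPM in α′/β′m, 125 and 122 TPM in α′/β′ap+m, 66.0 and 59.4 TPM in α/βp, 172 and 101 TPM in α/βs and 97.4 and 97.4 TPM in α/βc. The highest levels were in γd 2 and γm+d, the lowest in α′/β′m, and γd 1 lay below α′/β′ap+m. klg was higher in γ than in α′/β′ (log2 difference 2.17, SE 0.53, adjusted p = 0.0282). The klg call ended without γd 2, γm+d 1, γm+d 2, α′/β′m 1 or α′/β′m 2 (log2 difference 1.77 to 2.19, adjusted p = 0.0504 to 0.103). It also ended on unscaled TPM, without the filter on low values, without the variance trend or with 1 value per subtype (log2 difference 1.82 to 2.17, adjusted p = 0.0728 to 0.294).

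Of the irre-type receptors known from muscle fusion and eye patterning, kirre was the one called. It was at 1.53 and 8.46 TPM in γd, 24.7 and 13.7 TPM in γm+d, 11.7 and 9.58 TPM in α′/β′m, 3.02 and 4.91 TPM in α′/β′ap+m, 32.9 and 42.8 TPM in α/βp, 52.9 and 70.4 TPM in α/βs and 87.1 and 57.8 TPM in α/βc. kirre was lower in α′/β′ than in α/β (log2 difference -3.39, SE 0.53, adjusted p = 0.000458), with no overlap, and the call held without any 1 library. Its F-test call (adjusted p = 0.0108) ended without α′/β′ap+m 1 (log2 range 4.18, adjusted p = 0.0623). The γ class, with a mean of 12.1 ± 9.79 TPM (SD, n = 4), was called against neither, but it was lower than α/β on unscaled TPM (log2 difference -2.51, adjusted p = 0.0467). sns, a known partner of kirre in muscle, was not called, with means of 12.9 ± 5.13 TPM in γm+d (the lowest) and 31.0 ± 3.42 TPM in α/βc (the highest). After quantile normalization its mean was lowest in α′/β′ap+m and highest in γd. hbs and rst were untested, at 1.23 to 3.52 and 0.03 to 5.53 TPM.

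Lar, a receptor tyrosine phosphatase of axon targeting, was at 414 and 348 TPM in γd, 498 and 477 TPM in γm+d, 376 and 389 TPM in α′/β′m, 300.3 and 301 TPM in α′/β′ap+m, 578 and 463 TPM in α/βp, 667 and 571 TPM in α/βs and 636 and 717 TPM in α/βc. It differed among the subtypes (F-test adjusted p = 0.011), with the lowest mean in α′/β′ap+m and the highest in α/βc. The α′/β′ class was below α/β by less than 2-fold and so was not called (log2 difference -0.87, SE 0.20, adjusted p = 0.0119). The Lar F-test call ended without α′/β′ap+m 1 or α′/β′ap+m 2 (log2 range 1.30 to 1.30, adjusted p = 0.0753 to 0.0757). It also ended after median-ratio scaling or without the variance trend (log2 range 1.29 to 1.41, adjusted p = 0.174 to 0.194). Lar shares 8637 exon bases with CG46244 on the same strand, so reads of the 2 genes may be split.

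Some genes of the same family are neighbours in the genome. Positions come from an Ensembl annotation of BDGP6, which held 42 of the 43 genes by identifier. They lie on 2L (16 genes), 3R (14), 2R (6), X (4) and 3L (2), and 10 pairs of the same family lie within 100.0 kb of each other. beat-Ia and beat-Ic are 8.3 kb apart, beat-IIa and beat-IIb 55 kb, beat-Va and beat-Vb 67.6 kb, ed and fred 39.7 kb, and rst lies inside the span of kirre. beat-IIa was above beat-IIb in 10 of 14 libraries, and over the 7 subtype means they correlated at r = 0.67, with high means shared by α′/β′m and α/βp and a split in γd. The beat-IIa mean in α/βp rests on 1 library, with 46.3 TPM in α/βp 2 against 9.48 TPM in α/βp 1. beat-Va was above beat-Vb in 4 of 14 libraries, those of γd and α/βp, with r = 0.40. ed was above fred in 12 of 14 libraries (r = 0.41), and kirre above rst in all 14 (r = -0.14). These coefficients rest on 7 points from shared libraries and are given as a description.

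**Figure D4:**
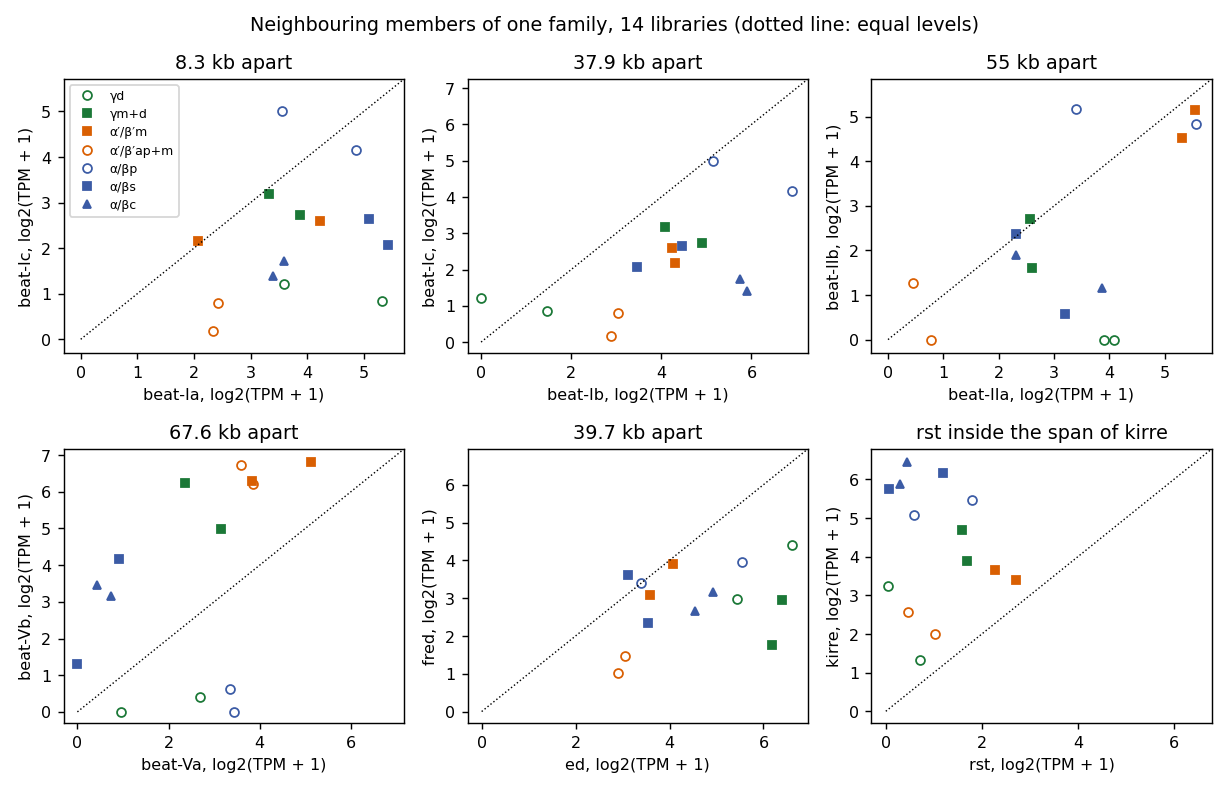
Levels of 6 pairs of neighbouring genes in the 14 libraries, both axes as log2(TPM + 1), with the dotted line marking equal levels. Each point is 1 library, colours give the class (γ green, α′/β′ orange, α/β blue) and marker shapes the subtype. For beat-Va and beat-Vb only the γd and α/βp libraries lie below the line, and for rst and kirre every library lies above it.

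Transcript usage was tested for the 28 genes with at least 2 transcripts at 10 TPM or more in some library. Only Fas1 was called. Its usage differed between γ and α′/β′ (limma diffSplice, adjusted p = 0.00134), where 1.12% of the 3660 genes tested were called, and between α′/β′ and α/β (adjusted p = 6.29e-06), where 0.929% were. Between γ and α/β, with 1.67% of genes called, none of the 28 passed (Fas1 adjusted p = 0.737). At an unadjusted p under 0.05, 5, 4 and 3 of the 28 differed in γ against α′/β′, γ against α/β, and α′/β′ against α/β, where 12.1%, 13.4% and 8.52% of all genes tested did.

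Fas1 (chromosome arm 3R, 16625238 to 16639771 in BDGP6, plus strand) has 7 annotated transcripts. Fas1-RG carried 95.5% ± 2.80 of the gene's TPM in γ, 84.2% ± 5.77 in α′/β′ and 93.4% ± 1.23 in α/β (SD, n = 4, 4 and 6). Fas1-RF carried 0.262% ± 0.246 in γ, 9.33% ± 3.48 in α′/β′ and 0.675% ± 0.691 in α/β. Fas1-RF and Fas1-RE lack the interval from 16637112 to 16638622, which is spliced out of them and lies inside the last exon of Fas1-RG. Fas1-RE and Fas1-RF together took 6.78% and 17.7% in α′/β′m and 9.35% and 9.89% in α′/β′ap+m. They took 0.0848% and 0.289% in γd, 0.267% and 0.78% in γm+d, 0.57% and 2.18% in α/βp, 0.544% and 0.283% in α/βs, and 0.501% and 0.768% in α/βc. Every α′/β′ library was thus above every other library. The gene as a whole was not called between classes: Fas1 was at 16560.1 and 16168 TPM in γd, 8999.9 and 5866 TPM in γm+d, 9736 and 7705 TPM in α′/β′m, 6208 and 6130.3 TPM in α′/β′ap+m, 12466 and 7531 TPM in α/βp, 11578 and 13016 TPM in α/βs and 8939 and 7339.5 TPM in α/βc. Between γd and γm+d it was not called (log2 difference 0.53, SE 0.15, adjusted p = 0.103), but it was on unscaled TPM (log2 difference 1.17, adjusted p = 0.0278). Nuclear RNA holds transcripts that are not fully spliced, and kallisto divides reads among overlapping transcripts by a model, so the shares are estimates.

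**Figure D5:**
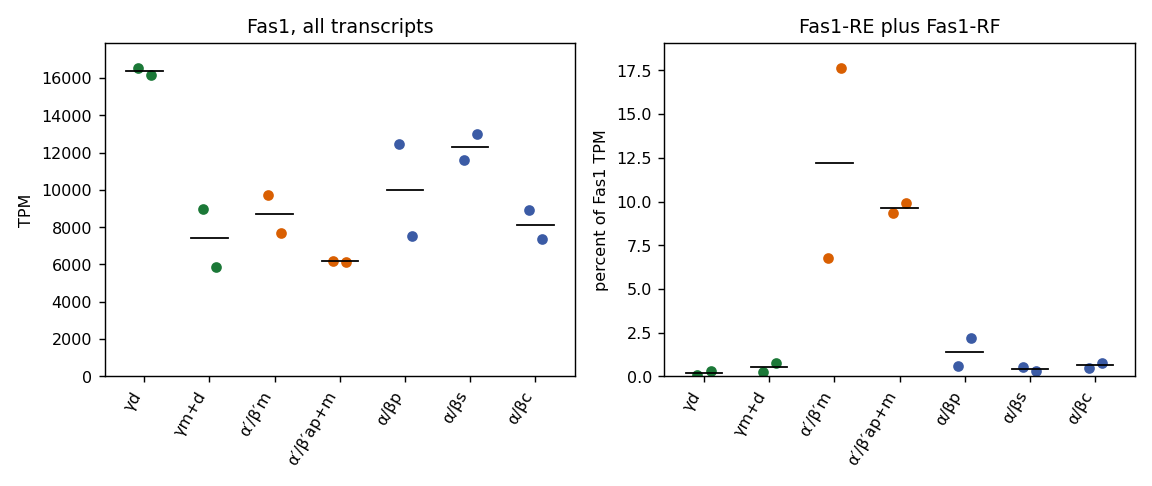
Fas1 by subtype: TPM of all its transcripts (left) and the percent of that TPM in Fas1-RE plus Fas1-RF (right). Points are single libraries, 2 per subtype, lines are their means, and colours give the class (γ green, α′/β′ orange, α/β blue). The 4 α′/β′ libraries hold 6.78% to 17.7% and the other 10 hold 2.18% or less.

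Known partners of these proteins were read from 2 lists, 21 ligands and surface partners and 21 intracellular ones. Of the first, 18 were tested and 5 differed among the subtypes (side-II, side-V, side-VIII, dlp and Fas2). Of the second, 19 were tested and 3 did (dock, trio and mbc), where 14.2% of all tested genes did. dlp, a glypican, was at 99.0 to 209.5 TPM in γ and at 12.3 TPM or less in the other 10 libraries, and was higher in γ than in α′/β′ (log2 difference 5.09, SE 0.63, adjusted p = 0.000105) and than in α/β (log2 difference 5.51, SE 0.58, adjusted p = 9.92e-06). Fas2, an immunoglobulin adhesion protein of the mushroom body lobes, was higher in γ than in α′/β′ (log2 difference 2.55, SE 0.37, adjusted p = 0.000471) and lower in α′/β′ than in α/β (log2 difference -3.16, SE 0.34, adjusted p = 7.81e-06). mbc, an exchange factor for Rac that acts in muscle fusion, was lower in γ than in α/β (log2 difference -1.74, SE 0.39, adjusted p = 0.0158) and lower in α′/β′ than in α/β (log2 difference -2.43, SE 0.39, adjusted p = 0.00053). RhoGAP93B, which binds Robo, was lower in γ than in α/β (log2 difference -1.22, SE 0.32, adjusted p = 0.042). Of the 7 Side genes other than side, side-V was called higher in α/βp than in α/βs and α/βc.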

How the data were processed

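Nuclear RNA of 7 Kenyon cell subtypes, 2 libraries each, was assigned to subtypes and classes by the driver line and cell type in the labels. The authors trimmed the reads with seqtk, quantified them with kallisto on Ensembl transcripts of BDGP6, removed spike-in, reporter and ribosomal entries, rescaled the rest to TPM and deposited a transcript table and its sum per gene. The authors' class means were not used. No counts were part of these tables, so depth and counting error are unknown and the study's voom step was replaced.

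The deposited TPM were transformed here to log2(TPM + 1) with a pseudocount of 1, quantile-normalized over the 14 libraries and fitted with limma 3.58.1 in R 4.3.3 (lmFit, eBayes with a variance trend), with 1 mean per subtype or class. Genes had to reach 10 TPM in 1 or more libraries, which 8646 of 13931 did. P-values are two-sided and Benjamini-Hochberg adjusted over all of them, and genes were called where the adjusted p was under 0.05 and the difference 2-fold or more. Transcript usage was tested with diffSplice on the 16377 transcripts of at least 10 TPM in a library. The class, subtype, within-class and transcript usage tests were tested on simulated data, where each missed a part of the changed genes, so a gene that was not called may still differ. Positions and exon overlaps came from an Ensembl annotation of BDGP6. Descriptive values and figures were made with pandas 2.3.3, numpy 2.4.6 and matplotlib 3.10.9 under Python 3.11.15.

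The gene list, the marker and partner lists and the tests were chosen with earlier results of these data known. Of the 43 genes, those called in the F-test or between classes are given with every library value, up to 25, and the others by their lowest and highest subtype mean. These means are in TPM. Their extremes can lie in other subtypes than those of the normalized values tested, as for sns, beat-Ia, beat-Vc and Fas1. Other settings tried were a pseudocount of 5 or 0.1, median-ratio scaling or unscaled TPM in place of quantiles, no filter or 10 TPM in 2 libraries (4 for transcripts), no variance trend, a replicate block, class means from the subtype model, 1 value per subtype, and omission of each library in turn or of γd 1 and α/βp 1 together.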

Additional observations from a re-analysis of the deposited data

Results flagged for a closer look

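Within the classes, 105 sets of 4 or 6 libraries were searched for a library far from the rest, and 8 were found. Chance alone marks about 1 in 20 sets drawn from a single population. Each set here pools subtypes that can differ, so that rate does not apply to them and a flag can reflect a subtype. Of the 8, 4 were in α′/β′m 1, 2 in α/βp 1 and 1 each in γd 1 and α′/β′m 2. In α′/β′m 1, beat-Ia was high at 17.6 TPM, against 3.2 to 4.38 TPM in the other 3 α′/β′ libraries. In the same library, kek1 was low at 469.5 TPM against 601 to 611 TPM, Dscam4 at 129 TPM against 152 to 156 TPM, and Nrg at 72.1 TPM against 94.6 to 98.5 TPM. Dscam1 was high in α′/β′m 2 at 1715 TPM, against 1211 to 1257 TPM. In α/βp 1, robo1 was low at 169 TPM, against 305 to 387 TPM in the other 5 α/β libraries, and unc-5 at 20.7 TPM, against 107 to 214 TPM. kek4 was low in γd 1 at 2.66 TPM, against 42.0 to 67.2 TPM in the other 3 γ libraries. γd 1 and α/βp 1 are also the libraries with the fewest genes above 0 TPM, and whether that bears on these values was not tested.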

How the results depend on the processing

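Among differences between pairs of classes or subtypes that were called in the main or the alternative fit, no direction reversed under any alternative. Differences called in neither were not checked for this, and the F-test has no direction. Of 52 calls of single genes (F-test, class pairs and pairs within classes), 21 were kept under every alternative and 31 were lost under at least 1, and 54 values that were not called gained a call under at least 1. The kept calls include both beat-VII class calls, unc-5, Lac and kirre between α′/β′ and α/β, Dscam3 in α/βp over α/βs and α/βc, and Fas3 in α/βp over α/βc. Without normalization beyond TPM 18 calls were lost, with median-ratio scaling 13, with 1 value per subtype 13, without the filter on low values 12, without the variance trend 10, 4 with a pseudocount of 0.1, 2 with one of 5, and 2 when libraries γd 1 and α/βp 1 were both left out.

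The 21 genes called among the subtypes became 18 to 26 under alternatives other than single omissions and 16 to 27 when 1 library was left out. The 18 calls between classes became 32 with class means from the subtype model and 5 with 1 value per subtype, 13 to 23 under the others, and 12 to 23 when 1 library was left out. The 13 calls within classes became 9 with median-ratio scaling or without the filter on low values and 23 without γd 1 and α/βp 1, and 6 (without α/βc 1 or α/βc 2) to 26 (without γd 2) when 1 library was left out. Where a subtype was left with 1 library, its spread was assumed equal to that of the others. The 2 transcript usage calls became 2 to 5, with 4 without γd 1 and 5 without γm+d 2. With a replicate block the counts were 19, 17, 12 and 2. Same-numbered libraries deviated together in 3 of 21 pairs of subtypes (r = -0.06 to 0.21, over 0.1 in those 3). The main fits did not pair samples by number, and whether some drivers shared a batch is unknown.

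The scaling moves the median of all tested genes: γ minus α′/β′ lay at -0.16 after quantile normalization, -0.88 with none and -0.50 with median ratios, γ minus α/β at -0.11, -0.60 and -0.34, and α′/β′ minus α/β at 0.07, 0.28 and 0.15, all as log2. With 2 libraries per subtype, and without counts, low genes such as beat-Vc, fred and fra carry wide replicate gaps, and the detection limit of a library is unknown.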
